A study of Mus musculus with 14 samples.

Results

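Nuclear genes for the oxidative phosphorylation machinery were followed across 14 mouse brain RNA libraries. The genes were taken by symbol (Nduf subunits, Sdha to Sdhd, Uqcr genes, Cyc1, Cycs, Cox4 to Cox8 genes and Atp5 genes, with 1 symbol left out by name) and had to reach 1 FPKM in at least 2 libraries. FPKM is the number of fragments scaled to transcript length and library size. Of 85 matching symbols 84 passed, among 14322 of 23375 genes that met the same filter. The symbol that did not pass was Cox8c, listed at 0 in every library. The 84 genes comprised 36 of complex I, 4 of complex II, 8 of complex III, 18 of complex IV, 17 of complex V and Cycs, the cytochrome c gene, which codes for the mobile carrier between complexes III and IV.

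Oxidative phosphorylation makes most of the ATP of neurons. Complexes I and II pass electrons from NADH and succinate to ubiquinone, complex III passes them to cytochrome c and complex IV to oxygen, and complexes I, III and IV pump protons that drive the ATP synthase, complex V. Each complex except complex II also holds subunits encoded in mitochondrial DNA, which were not analysed here. Several small subunits of complex IV exist as tissue isoforms, with forms typical of heart and skeletal muscle (Cox6a2, Cox7a1, Cox8b), of testis (Cox6b2, Cox7b2) or of lung and oxygen-poor tissue (Cox4i2).

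The libraries fall into 7 groups of 2. At the late embryonic stage E19.5 these were wild type, KO2, which lacks the H19-DMR and the IG-DMR, and KO7, which lacks 7 regions (Gnas-DMR, Grb10-DMR, Igf2r-DMR, Kcnq1-DMR, Nespas-DMR, Peg3-DMR and Snrpn-DMR). The adult groups were KO2, KO3, which lacks the Rasgrf1-DMR besides the 2 regions of KO2, and 2 wild-type sets, set 1 and set 2, which the titles number apart. A DMR is a differentially methylated region that marks the parental origin of an imprinted locus. The mutant mice came from haploid embryonic stem cells carrying the deletions, and from knowledge of the study KO2 and KO3 animals have 2 maternal genomes and KO7 animals 2 paternal ones, so the deletions and the parental origin cannot be told apart. The labels name no brain region, sex or strain, give no exact adult age and do not say that replicates are separate animals. The p-values therefore measure only how far these libraries spread, which may be technical variation.

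All 13 neuron markers examined reached 1 FPKM in all 14 libraries, which carry the label brain. The Y-linked gene Ddx3y reached 1 FPKM in 2 libraries, those of KO7, which also had Xist levels of 0.0159 and 0.0402 FPKM, while Xist lay at 1.50 FPKM in E19.5 KO2 replicate 1 and between 21.5 and 117 FPKM in the other 11 libraries. Sex therefore also differs between KO7 and wild type. Adult KO3 and wild-type set 2 were handled apart from the other 10 libraries before deposit: 9994 genes (42.8%) were listed at 0 in all 4 of these libraries, and 6396 of these genes were above 0 elsewhere. Only Cox7b2 and Cox8b, of the 84 genes, were listed at 0 in any library. KO3 was for this reason compared with set 2, and KO2 with set 1. The tissue is bulk brain, in which fewer cells of a type and less RNA per cell cannot be told apart. Many small-subunit genes have near-identical processed pseudogenes, and how the authors' counting split such reads is not given in the sources used here.

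Promoter sequences of ubiquitous subunits and of a muscle isoform are given first. Of the 84 genes 81 matched the RefSeq table (GRCm38.p6) by symbol and 3 by synonym, and 70 had a promoter there, counted from 250 bases before to 50 bases after the gene start. The letters GCGCANGCG, a form of the NRF1 motif, were found in 30.0% of these 70 genes and in 7.03% of all 27025 genes with a promoter. The ETS letters CCGGAAG, which GABP (NRF2) recognises, were found in 22.9% and 9.93%, and the YY1 letters AAGATGGC in 15.7% and 3.19%. At least 1 of these 3 was found in 57.1% of the 70 genes and in 17.8% of all genes. The palindromic core CGCATGCG, which overlaps the NRF1 letters, was found in 14.3% and 2.07%, and the ERR letters TCAAGGTCA in 2.86% and 0.466%. All were searched on both strands. The promoters of these genes also held more CG dinucleotides, a mean of 20.3 in their 76 listed promoters against 12.4 in all 32851 promoters, and the NRF1, ETS and palindromic letters themselves contain CG. The part of CG content in these shares was not tested. A match is a description of the letters, not a bound site. 

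4 promoters are printed because the genes frame the results below: Sdha did not overlap between ages in any group, Cox6a1 had the highest mean level, and Cox8a and Cox8b are the ubiquitous and the muscle form of the same subunit. They were chosen after the values and motifs had been seen. Capitals mark matches on either strand, and each sequence runs 5′ to 3′ on the gene's strand. Sdha (chr13:74350191-74350490, minus strand) held 3 NRF1 matches and 25 CG dinucleotides. Cox6a1 (chr5:115348909-115349208, minus strand) held 3 NRF1 matches, 2 of which overlap on opposite strands, 1 ETS match and 32 CG dinucleotides, and Cox8a (chr19:7217567-7217866, minus strand) held 2 ETS matches and 19 CG dinucleotides. Cox8b (chr7:140900397-140900696, minus strand) held none of the motifs and 2 CG dinucleotides.
Sdha: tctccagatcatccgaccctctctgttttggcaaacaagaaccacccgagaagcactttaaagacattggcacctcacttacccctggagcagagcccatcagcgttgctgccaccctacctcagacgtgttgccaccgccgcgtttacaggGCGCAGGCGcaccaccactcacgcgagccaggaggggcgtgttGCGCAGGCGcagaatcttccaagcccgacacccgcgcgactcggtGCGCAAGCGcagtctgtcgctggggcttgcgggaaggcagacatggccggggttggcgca
Cox6a1: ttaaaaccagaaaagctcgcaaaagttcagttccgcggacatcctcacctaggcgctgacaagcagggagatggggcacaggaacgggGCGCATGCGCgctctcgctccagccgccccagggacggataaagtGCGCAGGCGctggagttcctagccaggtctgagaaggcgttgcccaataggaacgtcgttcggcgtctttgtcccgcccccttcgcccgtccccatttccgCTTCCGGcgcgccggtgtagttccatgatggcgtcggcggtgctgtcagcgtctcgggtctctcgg
Cox8a: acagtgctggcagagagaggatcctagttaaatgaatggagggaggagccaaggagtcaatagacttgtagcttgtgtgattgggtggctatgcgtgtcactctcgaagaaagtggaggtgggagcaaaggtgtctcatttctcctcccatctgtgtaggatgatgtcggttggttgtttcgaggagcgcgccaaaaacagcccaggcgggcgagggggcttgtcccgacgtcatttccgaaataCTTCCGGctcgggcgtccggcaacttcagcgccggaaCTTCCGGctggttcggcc
Cox8b: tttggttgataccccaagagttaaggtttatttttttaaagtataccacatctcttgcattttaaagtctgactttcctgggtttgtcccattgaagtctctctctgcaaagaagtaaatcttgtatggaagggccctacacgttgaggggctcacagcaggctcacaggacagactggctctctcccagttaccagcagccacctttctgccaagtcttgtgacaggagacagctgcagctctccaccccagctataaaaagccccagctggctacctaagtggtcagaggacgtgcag

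Most of these genes were highly expressed. The mean over the 14 libraries was at least 100 FPKM for 62 of the 84 genes, against 4.71% of all genes tested, and at least 500 FPKM for 13. The median of the 84 means was 187 FPKM and that of all genes tested 9.56 FPKM. FPKM levels spanned a wide range within complexes I, IV and V. In complex I the accessory subunit gene Ndufa3 was highest, at a mean of 812 FPKM, and Ndufa11 lowest, at 25.7 FPKM. In complex II the range was narrow, from 130 FPKM for the iron-sulfur subunit gene Sdhb to 62.2 FPKM for the membrane anchor gene Sdhd. In complex III Uqcrq had 511 FPKM and the core protein gene Uqcrc2 84.6 FPKM. In complex IV Cox6a1 had 1333 FPKM and Cox7b2 0.956 FPKM, and in complex V the membrane subunit gene Atp5j2 had 670 FPKM and Atp5s, a gene named after the synthase that codes for no structural subunit, 6.11 FPKM. Cycs had a mean of 37.7 FPKM. Cox6a1 was the highest of the 84 genes in every library of E19.5, set 2 and KO3, and Cox8a was the highest in all 4 libraries of set 1 and adult KO2.

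**Figure D1:**
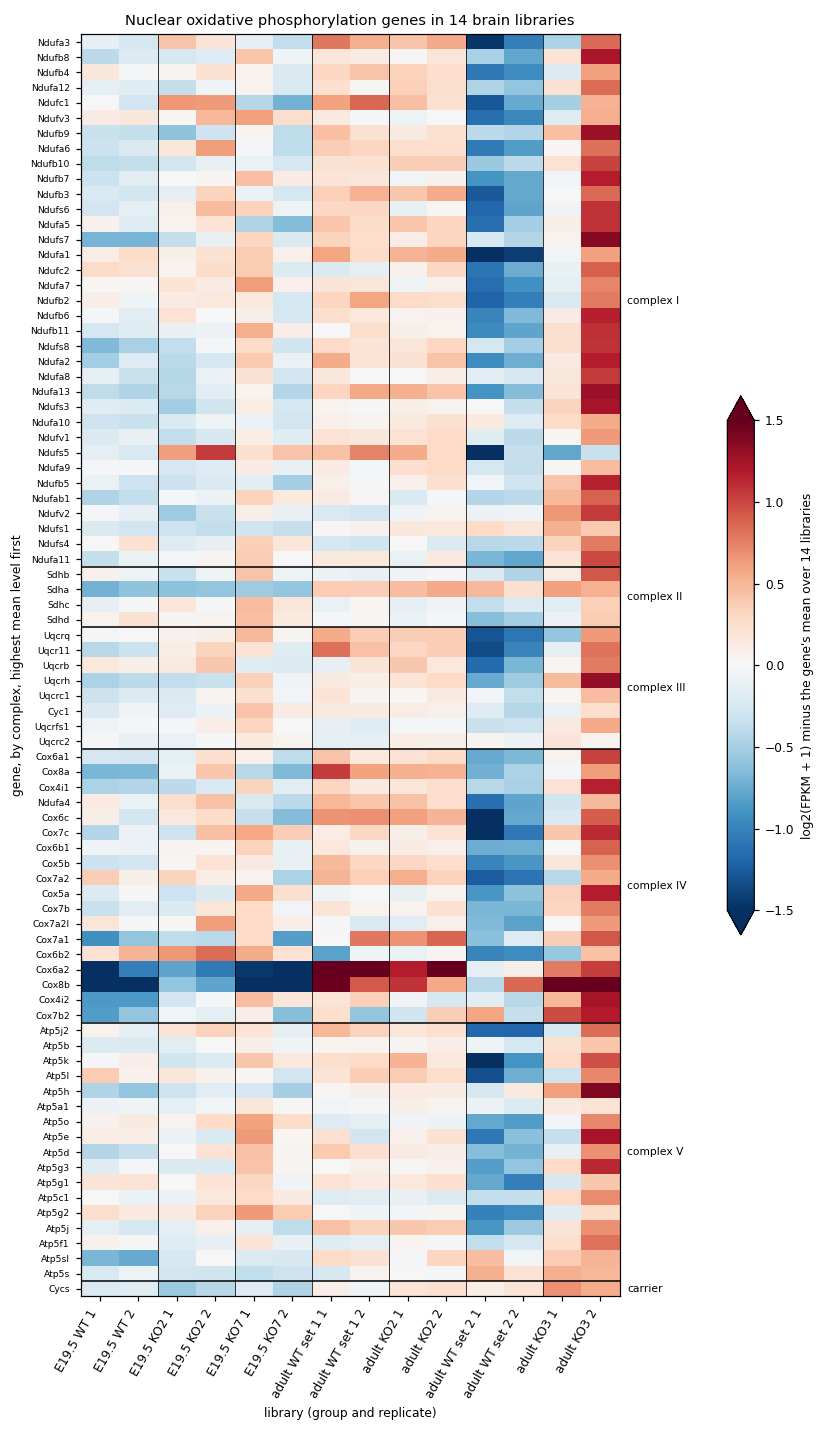
Heat map of 83 of the 84 oxidative phosphorylation genes (rows, grouped by complex, highest mean first) in 14 libraries (columns). Colour gives log2(FPKM + 1) minus the gene's mean over the 14 libraries. Wild-type set 2 is blue in most rows and adult KO3 replicate 2 red in most rows, and Cox6a2 and Cox8b differ between E19.5 and adult.

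With age, wild-type brain of set 1 had higher levels of 22 of the 84 genes and lower levels of 2 than E19.5 wild type, with the largest rises among tissue isoforms of complex IV. Of all genes tested 21.9% were called higher and 34.1% lower, so the share of risers among these genes (26.2%) was near the background, and the share of fallers (2.38%) was below it. A gene was called at an adjusted p below 0.05 in limma, fitted to log2(FPKM + 1) of all tested genes. The median log2 change of the 84 genes was 0.37 and that of all genes tested -0.15. By complex, 11 of 36 genes rose in complex I, 1 of 4 in complex II, 1 of 8 in complex III, 6 of 18 in complex IV and 3 of 17 in complex V.

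Cox8b, the muscle form of subunit 8, was listed at 0 in both E19.5 wild-type libraries and had 8.58 and 5.54 FPKM in set 1. Its log2 change was 2.98 (SE 0.35, limma adjusted p = 2.8e-05), and no ratio is given against values listed at 0. At E19.5 Cox8b reached 1 FPKM only in KO2 replicate 1 (1.29 FPKM), so it met the filter through the adult libraries. Its rise with age is therefore partly set by the filter. Cox6a2, the muscle form of subunit 6A, had 1.13 and 2.19 FPKM at E19.5 and 18.1 and 20.3 FPKM in set 1. The groups lay far apart, with a log2 change of 2.95 (SE 0.21, limma adjusted p = 8.8e-07).

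The ubiquitous Cox8a had 679 and 686 FPKM at E19.5 and 2258 and 1659 FPKM in set 1, a log2 change of 1.50 (SE 0.28). Cox7a1, the muscle form of subunit 7A, rose from 6.40 and 8.35 to 13.1 and 23.3 FPKM, a log2 change of 1.16 (SE 0.35). Cox4i2, the alternative form of subunit 4, rose from 0.752 and 0.749 to 2.65 and 3.07 FPKM, a log2 change of 1.14 (SE 0.22). In all 3 genes the set 1 libraries lay above the E19.5 ones. The share of all genes tested that lay apart in this way was not counted. The limma adjusted p ranged from 0.00082 for Cox8a to 0.015 for Cox7a1. The call for Cox7a1 was lost without E19.5 wild-type replicate 1 (log2 change 0.99) and without set 1 replicate 2 (0.76).

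Sdha, the flavoprotein subunit of complex II that oxidises succinate, stood at 65.3 and 70.6 FPKM in the E19.5 wild-type libraries and at 140 and 139 FPKM in set 1. The change was 1.03 on the log2 scale (SE 0.12, limma adjusted p = 2.6e-05). The other 3 complex II genes did not follow: the log2 changes were -0.10 for Sdhb, 0.04 for Sdhc and -0.15 for Sdhd, none of them called.

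In complex I the rises were smaller. Ndufs7 had the largest, a log2 change of 0.99 (SE 0.33), and Ndufs1, the largest iron-sulfur subunit, rose by 0.29 (SE 0.10, limma adjusted p = 0.028). Of the 7 core genes 3 rose, and of the 29 accessory genes 8 rose and 1 fell. In complex III only Uqcr11 was called, with a log2 change of 1.00, and Uqcrc1 at 0.39 was not. In complex V the catalytic gene Atp5b had a log2 change of 0.26 and was not called, and Atp5sl, a gene outside the synthase itself despite its symbol, had the largest rise at 0.97.

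The 2 genes that fell were Cox6b2 and Ndufs4. Cox6b2, the testis form of subunit 6B, lay at 10.2 and 12.7 FPKM in the E19.5 wild-type libraries and at 4.51 and 8.17 FPKM in set 1, a log2 change of -0.80 (SE 0.30, limma adjusted p = 0.041). Ndufs4, an accessory subunit needed for stable complex I, had 32.3 and 37.6 against 26.6 and 25.9 FPKM, a log2 change of -0.40 (SE 0.15, limma adjusted p = 0.042). Neither call held when the libraries were rescaled by quantiles or by medians of ratios, nor when no filter on low values was applied. The Cox6b2 call was also lost without either E19.5 wild-type library (-0.95 without replicate 1, -0.65 without replicate 2) and without set 1 replicate 1 (-0.43), and the Ndufs4 call without any 1 of the 4 libraries (-0.50 to -0.29). Without 1 of the 4 libraries 8 to 11 genes were called in all, against 24 with all libraries. In a fit to these 4 libraries alone 48 were called, and after quantile normalization 41. Scaling by medians of ratios moved the median change of all genes from -0.15 to -0.03 and that of the 84 genes to 0.52.

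**Figure D2:**
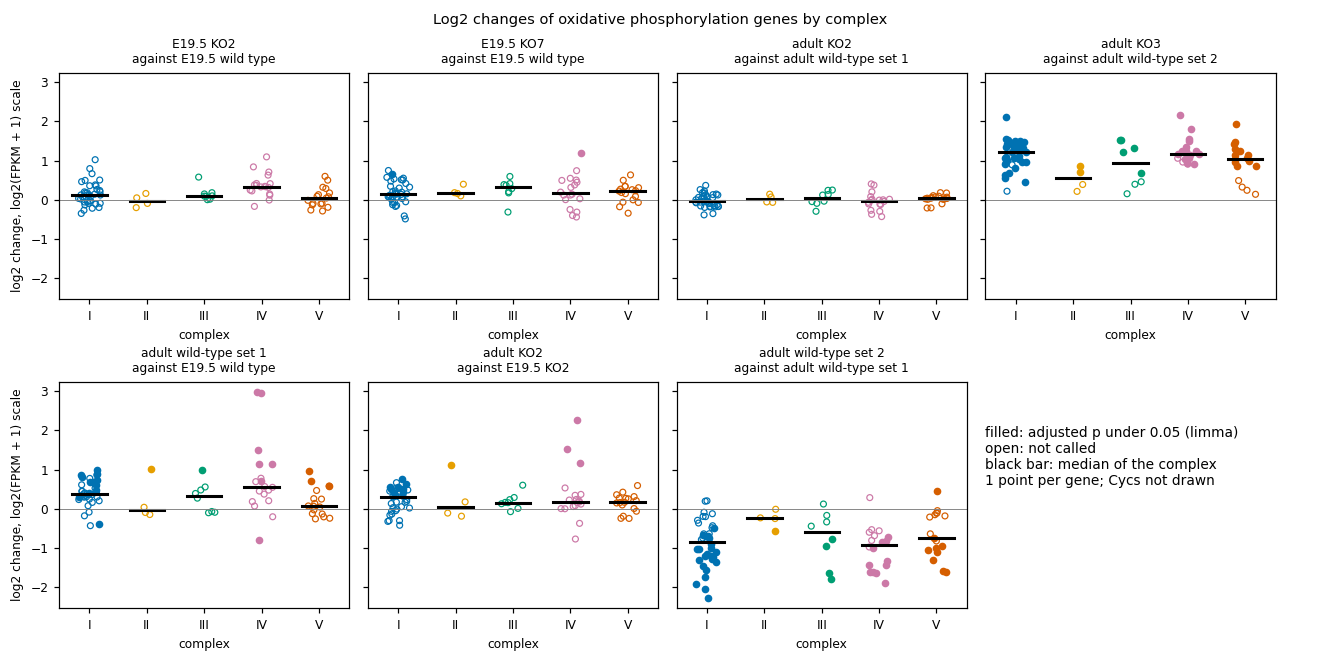
Log2 changes of the genes of each complex in 7 comparisons, 1 point per gene, on the log2(FPKM + 1) scale; black bars are medians and filled points passed an adjusted p of 0.05 in limma. In the age comparisons Cox8b and Cox6a2 lie above the other genes, and KO3 against set 2 is above 0 for all genes drawn.

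The result with age depended on which adult wild-type set was used. Against the same E19.5 wild-type libraries, set 2 was called higher for 8 of the 84 genes and lower for 37, with a median of -0.45. Of all genes tested 22.0% and 38.9% were called. The share of higher genes was thus below the background and that of lower genes near it. The background includes genes listed at 0 in set 2. Set 2 was handled apart from the E19.5 libraries, so age and handling cannot be told apart here. The 45 calls became 24 without E19.5 wild-type replicate 1, 27 without E19.5 wild-type replicate 2 and 25 without set 2 replicate 1, and 29 after scaling by medians of ratios. Both comparisons share their E19.5 libraries. The 8 higher genes were Cox8b (2.01), Cox6a2 (1.30), Sdha (1.01), Atp5sl (0.93), Cox4i2 (0.58), Atp5s (0.53), Ndufs1 (0.49) and Cycs (0.35), values being log2 changes. The rise of Cox8b is again partly set by the filter. Cox8a, at 0.08, and Cox7a1, at 0.35, were not called against set 2. Cox6b2 (-1.33) and Ndufs4 (-0.52) were again called lower. The comparison with set 2 was added after the values were seen.

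Across all groups, 5 genes had every adult library above every E19.5 library, whatever the genotype. They were Sdha, Ndufs1, Cycs, Cox6a2 and Cox8b, the last of which met the filter through adult libraries. The 5 genes are 5.95% of the 84 genes, below the 14.3% of all genes tested. In the other direction it was 0 of the 84 genes, against 24.5% of all genes tested. Sdha ranged from 65.3 to 74.0 FPKM in the 6 E19.5 libraries (median 70.6) and from 127 to 165 FPKM in the 8 adult ones (median 149). Ndufs1 ranged from 32.6 to 36.4 FPKM at E19.5 and from 42.8 to 61.6 FPKM in adults. Cycs ranged from 24.5 to 32.0 FPKM at E19.5 and from 35.0 to 59.6 FPKM in adults. Sdha thus kept its 2 ranges widest apart among these 3, and none of the 3 overlapped between ages.

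**Figure D3:**
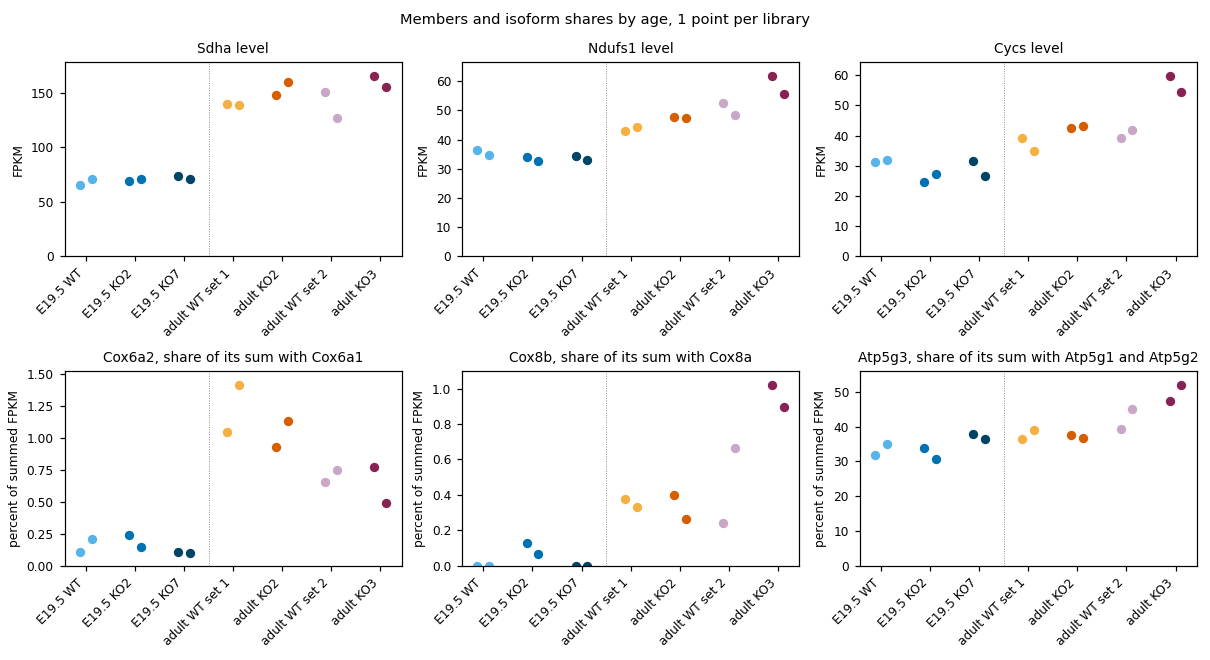
Upper panels, FPKM of Sdha, Ndufs1 and Cycs in each library; lower panels, the share of Cox6a2, Cox8b and Atp5g3 in the summed FPKM of their isoform set, in percent. Each point is a library, the dotted line parts E19.5 from adult, and no upper panel overlaps between ages.

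Isoform shares set each tissue form against its ubiquitous partner within the same library. Cox6a2 made up 0.102% to 0.241% of the summed FPKM of Cox6a1 and Cox6a2 at E19.5 and 0.486% to 1.41% in adults. Cox8b made up 0% to 0.126% of its sum with Cox8a at E19.5 and 0.239% to 1.02% in adults. Neither share overlapped between ages, yet the ubiquitous form carried nearly all of the signal throughout. Cox8b met the filter through adult libraries, so the order of its shares is partly set by the filter. Cox6b2 made up 1.64% to 2.46% of its sum with Cox6b1 at E19.5 and 0.649% to 1.34% in adults, which was the opposite order.

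The Cox7a1 share of the sum of Cox7a1 and Cox7a2 overlapped, at 1.98% to 6.05% and 3.64% to 9.14%. Cox4i2 never exceeded 0.322% of its sum with Cox4i1. The 3 genes for the c subunit of the synthase code for the same mature protein with different import sequences. Atp5g2 held 29.0% to 34.0% of their sum at E19.5 and 21.0% to 26.7% in adults, without overlap, and Atp5g3 held 30.8% to 37.8% and 36.3% to 51.9%. The highest Atp5g3 shares, 47.3% and 51.9%, were those of the KO3 libraries.

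Muscle markers were examined beside the muscle isoforms. Of 10 such genes 6 passed the filter, and none was called in set 1 against E19.5 wild type. Their summed level was 7.33 to 7.92 FPKM in E19.5 wild type, 12.8 to 15.5 FPKM in set 1, 15.7 and 53.9 FPKM in E19.5 KO2 and 10.4 to 12.1 FPKM in adult KO2. In set 2 and KO3 the sum was 5.23 to 13.1 FPKM. There 6 of the 10, among them Ckm and Actc1, were listed at 0, as were 42.8% of all genes, so these zeros cannot be read as measured absence. Cox6a2 had 4.93 to 12.5 FPKM in these 4 libraries.

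Markers of glia and neurons also differed with age. All 8 oligodendrocyte markers rose between E19.5 wild type and set 1, and their sum went from 40.5 to 49.6 FPKM to 2526 to 3306 FPKM. Of 8 astrocyte markers 7 rose, with sums of 233 to 279 and 1401 to 1455 FPKM, and all 8 microglia markers rose, with sums of 50.6 to 56.8 and 205 to 245 FPKM. Neuron markers rose in 10 of 13 genes and fell in 1 between E19.5 wild type and set 1 (median 1.10), with sums of 1533 to 1604 and 2145 to 2591 FPKM, and 4 of 6 parvalbumin interneuron markers rose and 1 fell (median 1.28). Their part in the changes of the 84 genes was not tested.

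In KO2 brain 13 of the 84 genes rose between E19.5 and adult and 0 fell, against 20.7% and 28.6% of all genes tested. The median change was 0.19 for the 84 genes and -0.09 for all genes. Cox6a2 had 2.79 and 2.16 FPKM at E19.5 and 13.9 and 17.7 FPKM in adults, a log2 change of 2.27 (SE 0.21, limma adjusted p = 8e-06). Cox8b had 1.29 and 0.988 against 6.30 and 4.10 FPKM, a log2 change of 1.52 (SE 0.35). Both genes were separated by age, as in wild type, but Cox8b met the filter through adult libraries. Many others of the 84 genes were separated too, among them Cox6b1 at a log2 change of 0.06. The share of all genes tested without overlap was not counted for this comparison.

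Sdha had 69.5 and 70.7 FPKM at E19.5 and 148 and 160 FPKM in adult KO2, a log2 change of 1.12 (SE 0.12, limma adjusted p = 1.9e-05). Cox7a1 rose by 1.16 (SE 0.35), Ndufa13 by 0.77 (SE 0.28) and Cycs by 0.71 (SE 0.12). The core genes of complex I, which carry its redox centres, were alike: all 7 had log2 changes between 0.40 and 0.55, and 4 of them were called, a group singled out after its values were seen. Of the 29 accessory genes 4 were called. The Ndufa13 call was lost without any 1 of the 4 libraries (0.65 to 0.89), the Cox7a1 call without 3 of them (1.06 to 1.18; it held without adult KO2 replicate 1), and 5 to 6 genes were called in all without 1 library. In a fit to the 4 libraries alone 29 were called, and after quantile normalization 32.

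The age changes of KO2 and wild type did not differ detectably for any of the 84 genes. A term for the difference between the 2 age changes gave 0 called genes, with 9 at an unadjusted p under 0.05 in limma, against 0.0349% of all genes called higher and 0.0279% lower. The median difference was -0.12, and single values ran from -1.47 for Cox8b to 0.61 for Ndufv2. The nearest to the threshold was Cox4i2, at -1.14 (SE 0.31, limma adjusted p = 0.16). The median ran from -0.19 without E19.5 KO2 replicate 1 to -0.01 without E19.5 KO2 replicate 2. How large a difference of age changes could be detected was not simulated.

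The 2 adult wild-type sets differed from each other in many of these genes. Set 2 was lower than set 1 for 46 of the 84 genes and higher for 1, where 14% and 6.84% of all genes tested were called. The median was -0.77, against -0.06 for all genes. Of the 7 core genes of complex I 0 were called in limma, with 3 at an unadjusted p under 0.05 and a median of -0.43. Of the 29 accessory genes of complex I 22 were lower, with a median of -1.03. In complex II the median was -0.24, and in the F1 head of complex V 1 of 5 genes was called, while in its stalk, membrane and c subunits 7 of 10 were. In complex IV 11 of 18 genes were lower, with a median of -0.91.

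Ndufa1, a small membrane subunit of complex I, had 34.1 and 61.8 FPKM in set 2 and 251 and 203 FPKM in set 1, a log2 change of -2.27 (SE 0.27, limma adjusted p = 0.00034). Ndufs5 (-2.04), Ndufa3 (-1.91), Cox6c (-1.88), Uqcr11 (-1.80) and Ndufc1 (-1.74) followed, all of them small subunits. Several large catalytic or core subunits had values closer to each other. Sdha had 150 and 127 FPKM in set 2 against 140 and 139 FPKM in set 1, and the log2 change was -0.01. For Ndufs1 it was 0.20, for Uqcrc2 0.12, for Atp5a1 -0.12 and for Atp5b -0.21, none of them called. This contrast by subunit was noticed after the values were seen, and it was not complete. The core gene Ndufs7 had 148 and 129 FPKM in set 2 against 221 and 210 FPKM in set 1. The redox subunit gene Cyc1 had 124 and 106 against 156 and 156 FPKM. In contrast, the stalk or membrane gene Atp5h overlapped, at 367 and 479 against 441 and 461 FPKM. The 1 gene called higher was Atp5s, at 0.46 (SE 0.14, limma adjusted p = 0.042). Without 1 of the 4 libraries 22 to 30 genes were called; the Atp5s call was lost without replicate 1 of either set (0.32 and 0.30), and the Ndufs5 call without either set 1 library (-2.19 and -1.89).

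Of 76 genes for proteins of the cytosolic ribosome 48 were lower in set 2 (median -0.92), well above the 14% of all genes tested. Of 73 for the mitochondrial ribosome 13 were lower and 1 higher (median -0.26), a share of lower genes near that background. The background includes genes listed at 0 in set 2. Of 8 microglia markers 5 were lower, and of 6 parvalbumin interneuron markers 2 were higher. The summed microglia markers had 106 to 144 FPKM in set 2 and 205 to 245 FPKM in set 1. The part of these groups and of the separate handling of the set 2 libraries was not tested.

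**Figure D4:**
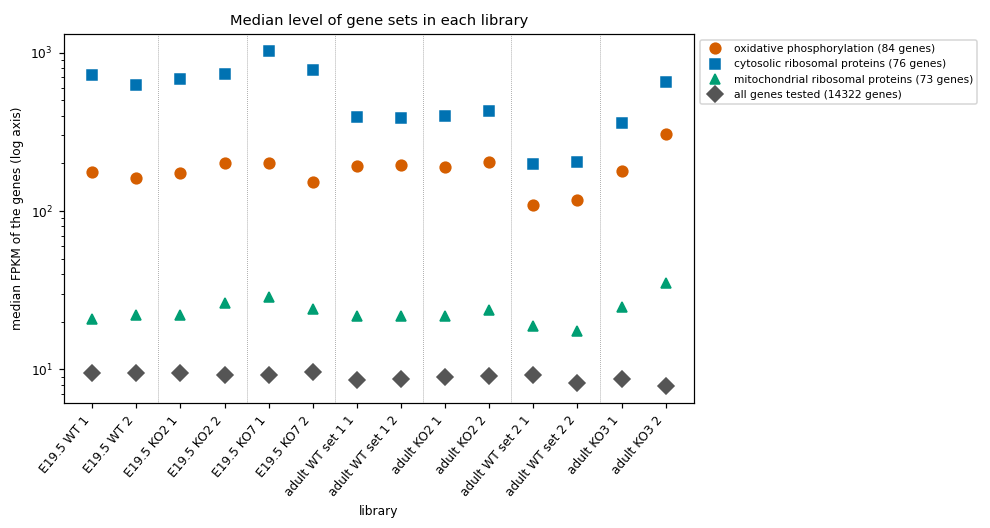
Median FPKM (log axis) of 4 gene sets in each library: the 84 oxidative phosphorylation genes, cytosolic ribosomal protein genes, mitochondrial ribosomal protein genes and all genes tested. For the oxidative phosphorylation genes set 2 is lowest, at 110 and 117 FPKM, and KO3 replicate 2 highest, at 307 FPKM, while the median of all genes tested stays between 7.82 and 9.59 FPKM.

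Adult KO3 brain had higher levels than wild-type set 2 for 70 of the 84 genes and lower levels for 0, where 13.9% and 8.2% of all genes tested were called. All 84 log2 changes were above 0, with a median of 1.10, against a median of 0 over all genes tested, and 81 genes had both KO3 libraries above both set 2 libraries (background 29.2%). The shared set 2 libraries link this comparison to the one between the wild-type sets. In complex I 34 of 36 genes were called, in complex II 2 of 4, in complex III 5 of 8, in complex IV 15 of 18 and in complex V 13 of 17. The median was 1.32 in the accessory and 0.92 in the core genes of complex I.

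Cox7c, a small subunit of complex IV, had 960 and 1574 FPKM in KO3 and 217 and 343 FPKM in set 2, a log2 change of 2.17 (SE 0.32, limma adjusted p = 0.0086). Ndufa1 had 162 and 256 FPKM in KO3 and 34.1 and 61.8 FPKM in set 2, a log2 change of 2.12 (SE 0.27, limma adjusted p = 0.0058). The KO3 and set 2 libraries lay apart in both, but the KO3 values of Ndufa1 included 1 below and 1 above those of set 1 (251 and 203 FPKM).

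Atp5k, the e subunit of the synthase, had a log2 change of 1.94, Cox8b of 1.80, Ndufb11 of 1.54 and Cox6c of 1.54. The 14 genes that were not called included the large subunits Sdha (0.21), Ndufs1 (0.22), Uqcrc2 (0.15), Atp5a1 (0.32), Uqcrc1 (0.46) and Atp5b (0.49), besides Cyc1 and Sdhc at 0.39 each. The others were Atp5s, Atp5sl, Ndufs5, Cox6b2, Cox7a1 and Cox7b2. Sdha had 165 and 155 FPKM in KO3 and 150 and 127 FPKM in set 2.

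The size of this difference and the number of calls depended on single libraries. The median change ran from 0.75 to 1.48 when 1 of the 4 libraries was left out. KO3 replicate 2 was above replicate 1 in 79 of the 84 genes, by a median of 0.76 on the log2 scale (1.69-fold), whereas the median over all genes tested was -0.05. The median level of the 84 genes was 179 FPKM in KO3 replicate 1 and 307 FPKM in replicate 2, 110 and 117 FPKM in set 2, and 193 and 196 FPKM in set 1. Without KO3 replicate 2, 29 genes were called and the median change was 0.75. Without set 2 replicate 1, 0 were called in limma, although 75 had an unadjusted p under 0.05. Without set 2 replicate 2 the count was 37, and without KO3 replicate 1 it was 76. The calls for Cox8b (1.58) and Cox6c (0.97) were also lost without KO3 replicate 2. In a fit to the KO3 and set 2 libraries alone, with 2 residual degrees of freedom, 0 were called in limma and 51 had an unadjusted p under 0.05.

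Against wild-type set 1, a comparison added after the values were seen, KO3 was higher for 16 of the 84 genes and lower for 1, at backgrounds of 12.1% and 17.7%, with a median of 0.31. KO3 and set 1 were handled apart before deposit, so genotype and handling cannot be told apart in this comparison. The higher genes included Cox7b2 (1.24), Ndufv2 (1.11), Atp5h (0.95), Ndufs4 (0.83) and Cycs (0.61), and the lower gene was Cox6a2 (-0.71). Cox7b2 had low levels, 2.51 and 3.07 FPKM in KO3 and 1.14 and 0.187 FPKM in set 1. Ndufa1 (-0.15) and Cox6c (-0.35) changed sign and were not called. The 17 calls became 49 without KO3 replicate 1, 5 and 7 without set 1 replicates 1 and 2, and 1 in a fit to these 4 libraries alone. Cycs was called higher against both sets: it had 59.6 and 54.3 FPKM in KO3, 39.3 and 41.8 FPKM in set 2 and 39.1 and 35.0 FPKM in set 1, and its log2 change against set 2 was 0.48 (SE 0.12, limma adjusted p = 0.021).

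Beside the 84 genes, 62 of 76 cytosolic ribosomal protein genes (median 1.12) and 52 of 73 mitochondrial ones (median 0.72) were higher in KO3 than in set 2, and none was lower. Of 40 assembly factors of the complexes 14 were higher and 2 lower, with Pet100, a factor for complex IV, at 1.72 (SE 0.21). Of 21 carriers and cristae proteins of the inner membrane 14 were higher. Red cell markers were higher in 3 of 7 genes, and their summed level was 1120 to 1241 FPKM in KO3 and 115 to 181 FPKM in set 2. Their part in the result was not tested.

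In E19.5 KO2 brain 0 of the 84 genes passed the threshold in limma, with 9 at an unadjusted p under 0.05, where 0.88% of all genes were called higher and 0.398% lower. The median log2 change was 0.12, against -0.01 for all genes, and it was 0.053 without KO2 replicate 2. Complex IV had a median of 0.33, with 16 of 18 genes above 0, and complexes I, II, III and V had medians of 0.12, -0.02, 0.09 and 0.04. The 6 tissue isoforms of complex IV were all above 0, from 0.37 to 1.09. For Cox8b the KO2 libraries showed 1.29 and 0.988 FPKM and both wild-type libraries 0, and its change was 1.09 (SE 0.35, limma adjusted p = 0.15). Cox4i2 had 1.61 and 2.12 FPKM against 0.752 and 0.749 FPKM, a change of 0.71 (SE 0.22, limma adjusted p = 0.15).

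Atp5sl was nearest to the threshold, with 9.92 and 11.9 FPKM in KO2 and 7.05 and 6.65 FPKM in wild type, a change of 0.60 (SE 0.17, limma adjusted p = 0.13). Cox8a had 1021 and 1457 FPKM against 679 and 686 FPKM (0.84, SE 0.28, limma adjusted p = 0.17). In these 4 genes the KO2 libraries lay above the wild-type ones, but none was called. The share of all genes tested that lay apart in this way was not counted. Muscle markers had 1 called gene of 6, higher in KO2, and all 6 were above 0, with sums of 15.7 and 53.9 FPKM in the KO2 libraries. Other lists differed too. Summed astrocyte markers had 488 to 525 FPKM in KO2 and 233 to 279 FPKM in wild type, and oligodendrocyte markers 99.3 to 179 and 40.5 to 49.6 FPKM. Progenitor and cell division genes were lower, at 122 to 124 against 141 to 144 FPKM. The part of these lists was not tested. Fitted to the 4 libraries alone, 3 of the 84 genes were called.

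E19.5 KO7 brain had higher levels of 2 of the 84 genes, Cox4i2 and Ndufab1, and lower levels of 0, at backgrounds of 3.02% and 1.43%. Neither share was above that of all genes tested. Cox4i2 had 3.37 and 2.61 FPKM in KO7 and 0.752 and 0.749 FPKM in wild type, a log2 change of 1.18 (SE 0.22, limma adjusted p = 0.015). Its share of the sum with Cox4i1 was 0.288% and 0.313% against 0.113% and 0.110%. Ndufab1, the mitochondrial acyl carrier protein that is also a complex I subunit, had 87.3 and 75.8 FPKM in KO7 and 49.5 and 52.5 FPKM in wild type, a log2 change of 0.66 (SE 0.14, limma adjusted p = 0.027). Neither gene overlapped between the groups, and the share of all genes tested without overlap was not counted here.

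Next to the threshold came Atp5sl (0.50, limma adjusted p = 0.13) and Atp5d, the delta subunit of the F1 head (0.63, limma adjusted p = 0.14). The median of the 84 genes was 0.18. KO7 replicate 1 was above replicate 2 in 81 of the 84 genes, by a median of 0.31 on the log2 scale, and without replicate 1 the median was 0.02. The Cox4i2 call was lost without KO7 replicate 1 (1.04) and without either wild-type library (1.18 both times), and the Ndufab1 call without any 1 of the 4 libraries (0.56 to 0.76).

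Several marker lists moved with KO7. Of 11 endothelial and pericyte markers 4 were higher, with sums of 200 to 228 FPKM in KO7 and 110 to 122 FPKM in wild type, of 8 meningeal markers 7 were higher (263 to 297 against 106 to 158 FPKM), and of 7 red cell markers 4 were higher (3156 to 3480 against 199 to 673 FPKM). Of 12 hypoxia response genes 6 were higher, and Ndufa4l2, a hypoxia-induced relative of Ndufa4 that is not among the 84 genes, had 10.2 ± 2.28 FPKM against 1.93 ± 0.793 (SD, n = 2) and a log2 change of 1.94 (SE 0.29). The part of these lists in the Cox4i2 and Ndufab1 results was not tested.

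Adult KO2 brain differed from wild-type set 1 in 0 of the 84 genes in limma, with 1 at an unadjusted p under 0.05, at backgrounds of 0.105% and 0.0489%. The log2 changes ran from -0.43 to 0.40, with a median of 0.01, or -0.050 after scaling by medians of ratios. Against the adult wild-type libraries of both sets as 1 group of 4 the median was 0.39, with 0 called in limma and 5 at an unadjusted p under 0.05, so the median near 0 holds for set 1 only. Nearest to the threshold were Uqcrc2, with 90.3 and 89.6 FPKM against 76.2 and 76.1 FPKM (0.24, SE 0.11, limma adjusted p = 0.67), and Cox4i2, with 2.07 and 1.65 FPKM against 2.65 and 3.07 FPKM (-0.43, SE 0.22, limma adjusted p = 0.73). The libraries did not overlap in either gene, and the share of all genes tested without overlap was not counted for this comparison. On simulated data 72% of log2 changes of 1 and 7% of those of 0.5 were called in this comparison, so changes smaller than these were mostly not detectable with 2 libraries a group.

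The other steps of energy metabolism were described from lists of their own. Of 17 glycolysis genes 13 rose and 0 fell between E19.5 wild type and set 1 (median 0.99), where 21.9% and 34.1% of all genes did, led by Aldoc (3.09, SE 0.23) and the neuronal enolase gene Eno2, which had 49.2 ± 6.20 FPKM at E19.5 and 296 ± 14.3 FPKM in set 1 (SD, n = 2). Against set 2 12 of them were higher and 0 lower (median 0.93). Of 17 genes of the TCA cycle and pyruvate dehydrogenase 8 rose and 1 fell in set 1 (median 0.14), with Idh3b at 0.99. With set 2, 7 genes of that list were higher and 1 lower (median 0.33), so the median of both lists was above 0 with either wild-type set.

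In KO2, 11 glycolysis genes rose and 1 fell with age, and 9 genes of the TCA list rose and 0 fell. In E19.5 KO7 7 of 17 glycolysis genes were higher and 0 lower (median 0.61), with Pfkl at 0.95 and Pgam1 at 0.76, and 0 of the TCA genes were called. In E19.5 KO2 2 glycolysis genes were higher, Aldoc (1.57) and Gpi1 (0.88). In adult KO2 0 genes of either list were called.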

How the data were processed

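Poly(A) RNA of mouse brain was sequenced, per the labels, in 14 libraries. The authors deposited FPKM values in 1 table, with no counts, so depth and intervals from counts cannot be given. Per the submitters' processing notes the mm9 build was used with TopHat2 (2.1.1), CASAVA and Cufflinks (2.2.1); which annotation, filter or strand setting was used is not given in the sources used here, nor is any scaling. For 10 libraries a header word names FPKM, and the KO3 and set 2 columns, which lack it, were read the same way. The 2 entries without a gene name were left out. Log2(FPKM + 1) of the 14322 genes with at least 1 FPKM in 2 libraries was fitted with limma 3.58.1 (trend) in R 4.3.3, with 7 group means and 7 residual degrees of freedom. P-values were adjusted by Benjamini-Hochberg over all genes tested and called below 0.05. A log2 change is the difference of group means on that scale and understates changes of low genes. The pipeline was tested on simulated data with 200 changed genes. The genes, complexes and lists were chosen with earlier results of these data known. Text names the 6 largest called rises and falls per comparison, isoform sets, highest and lowest per complex, Cycs, Atp5b, Sdha, Uqcrc1 and Ndufs1, genes nearest the threshold where under 3 passed, and up to 2 leading genes of other lists; genes named beyond this rule were chosen after their values were seen. Single values of some genes are not reported here, and the heat map leaves 1 gene out. Both comparisons across the wild-type sets, the removal of 2 libraries together and the crossed pairing were chosen after seeing the data. An NRF1 form longer by 1 letter was searched first and is not shown. Promoters were read from RefSeq (GRCm38.p6), and no coordinates of the files' build were used. Correlation of same-numbered deviations and a replicate block, 3 scalings, pseudocounts, filters and single left-out libraries were tried as alternatives.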

Additional observations from a re-analysis of the deposited data

How the results depend on the processing

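With 2 libraries a group, log2 changes near 0.5 were mostly missed in the simulation (7% to 14% called), and depth per library is unknown from FPKM. Values below are counts of the 84 genes called, or their median log2 change. Leaving out 1 library gave 0 to 1 called in E19.5 KO7, 0 to 76 in KO3, 8 to 11 in the wild-type age comparison, 5 to 6 in the KO2 one and 22 to 30 between the sets, where the median ran from -0.85 to -0.73. A pseudocount of 0.1 gave 1 called in E19.5 KO2 and 1 in the difference of age changes. Quantile normalization gave medians of 0.60 in KO3, -0.44 between the sets and 0.33 in the KO2 age comparison, with 32 called there and 41 in wild type. Median-of-ratios scaling gave -0.050 in adult KO2 and 0.52 in the wild-type age comparison. Fitting only the groups compared gave 3 called in E19.5 KO2, 0 in KO3, 48 and 29 in the age comparisons of wild type and KO2 and 2 in their difference. Wild type as 1 group of 4 gave a median of 0.39 in adult KO2, 18 called in KO3, and 11 called with a median of -0.037 for age. Set 2 in place of set 1 gave 45 called and -0.45 for age; set 1 in place of set 2 gave 17 called and 0.31 in KO3, with Ndufa1 at -0.15 and Cox6c at -0.35. Leaving out adult KO3 replicate 2 and E19.5 KO7 replicate 1 together, chosen after seeing the data, gave 4 called in E19.5 KO2, 1 in KO7, 45 in KO3, 46 and 25 for age and 1 in the difference. Apart from the change of reference set itself, the cause of these shifts was not tested. Of 347 alternatives for 29 single-gene results 279 kept direction and call, 66 kept direction without the call and 2 changed sign.

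Whether replicate numbers pair the samples cannot be settled with 2 pairs a comparison. Same-numbered deviations correlated between -0.16 and 0.23. With the replicate block, 0, 2, 0 and 67 genes were called in E19.5 KO2, E19.5 KO7, adult KO2 and KO3, 25 and 12 in the age comparisons of wild type and KO2, 42 between the sets, where Atp5s (0.46) lost its call, and 0 in the difference. In fits to the groups compared alone, crossed numbers gave 0 called in E19.5 KO2 and 27 in the KO2 age comparison, against 3 and 31 with equal numbers.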

Other observations

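Regulators of mitochondrial biogenesis were counted beside all genes tested. Of 20 such genes 4 rose and 10 fell between E19.5 wild type and set 1 (median -0.37), where 21.9% of all genes rose and 34.1% fell. In set 2 against the same E19.5 libraries 6 were higher and 2 lower (median 0.02), where 22.0% and 38.9% of all genes were. The share of risers in set 1 was near the background. Esrra, the nuclear receptor ERR alpha, was higher with either set: it had 9.22 ± 0.0582 FPKM in E19.5 wild type, 25.1 ± 1.61 FPKM in set 1 and 18.8 ± 1.50 FPKM in set 2 (SD, n = 2), with log2 changes of 1.35 and 0.95. Ppargc1b, a coactivator of that receptor, rose by 1.44 in KO2 with age. Ppargc1a was 0.69 higher in set 2 than in set 1, a direction opposite to that of 46 of the 84 oxidative phosphorylation genes, and Sirt3, a mitochondrial deacetylase, was lower by 0.95 (log2 change -0.95).

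Of 40 assembly factors of the complexes 7 rose and 5 fell in set 1, both below the shares of 21.9% and 34.1% over all genes tested. Cox17, the copper chaperone for complex IV, had 40.6 ± 2.22 FPKM in E19.5 wild type, 255 ± 28.4 FPKM in set 1 and 75.4 ± 36.2 FPKM in set 2 (SD, n = 2). Atpaf1, an assembly factor of the F1 head, was higher with both sets (1.13 and 1.40). Of the uncoupling list, Slc25a14 was higher in adults in set 1 (0.69), set 2 (0.81) and KO2 (0.98), and Ckmt1, the mitochondrial creatine kinase gene, had 36.9 ± 7.30 FPKM in E19.5 wild type and 132 ± 4.14 FPKM in set 1 (SD, n = 2).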
